A study of Mus musculus with 34 samples.

Results

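Cardiomyocytes differentiated from 2 lines of induced pluripotent stem cells (iPSC) were compared with each other: 2 samples of the first line, iPSC1, harvested on day 13, and 2 samples of the second line, iPSC2, harvested on day 9. They are 4 of the 34 samples of the series and were chosen by their titles. All cells considered here, primary cells included, were of the CD1 strain and of the genotype aMHC-GFP, in which the promoter of alpha-myosin heavy chain drives a green fluorescent protein. Both lines came from cardiac fibroblasts of newborn pups that had received Oct4, Sox2, Klf4 and cMyc. The differentiated cells were kept in StemPro-34 medium with GlutaMAX, ascorbic acid and the growth factors VEGF, bFGF and FGF10. Levels of 3 further groups of 2 samples each stand beside the results: iPSC2 cardiomyocytes on day 29, cardiomyocytes (neoCM) and cardiac fibroblasts (neoCF) of pups at postnatal day 1.5. The day of harvest differed wherever the line differed, so a difference between lines and a difference between days 13 and 9 cannot be told apart. The labels do not say whether a line is 1 clone or whether replicates were separate cultures. The p-values rest on the spread within all 16 groups of the fit, which may be technical.

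Pluripotent cells reach heart muscle through mesoderm and cardiac progenitors. A directed culture usually holds cardiomyocytes beside other derivatives of the same progenitors, such as fibroblasts, smooth muscle, endothelium and endocardium, and sometimes endoderm or epithelium. Cardiomyocytes are recognised by sarcomere proteins and by transcription factors such as Nkx2-5 and Gata4, and maturing cells exchange fetal for adult isoforms. Independently derived pluripotent lines can differ in karyotype, in imprinting and in how readily they enter each lineage.

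Gene levels are the log2 signal of an array minus that array's 75th percentile. Differences are line 1 minus line 2 on the log2 scale, with the standard error of the limma fit and n = 2 arrays a group. A gene was called where its Benjamini-Hochberg adjusted p over all 19415 genes tested was under 0.05 and the difference at least 2-fold. Of the 18618 autosomal genes tested, 4436 (23.8%) were called, 2491 (13.4%) higher in line 1 and 1945 (10.4%) lower. The counts of list members below are to be read against these shares. For 13857 genes (74.4%) the arrays of the lines did not overlap, so a lack of overlap in a gene below was the common case. Of the called genes, 296 were not well above background on both arrays of either line, 165 of them on none of the 4 arrays. Folds given below as "at least" rest on the lowest signal well above background of an array and are no strict lower limits. The median difference over all autosomal genes was -0.11. Replicates correlated at r = 0.995 in line 1 and r = 0.989 in line 2 over genes, and the lines with each other at r = 0.943. The second line 2 array was the dimmest, with a 75th percentile of 824 signal units against 1541 to 1797 on the other 3. All 4 arrays lay on 1 slide, line 1 in its first row and line 2 in its second, so slide row and line cannot be told apart. The day 29 arrays of line 2 differed from each other more than those of any other group (SD of the difference 1.73 against 0.32 to 0.71). They were left out of the fit and are given array by array, without a test.

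Both lines expressed heart muscle genes, at lower levels in line 1. All 8 cardiomyocyte markers were well above background on all 4 arrays. Their median level was 3.96 and 3.99 in line 1 and 5.20 and 5.36 in line 2, beside 6.69 and 6.78 in neoCM and 1.47 and 1.03 in neoCF. Both lines thus lay below neoCM and above neoCF, and the arrays of the lines did not overlap. Of the 8 markers, 5 were called lower in line 1, where 10.4% of all genes were, and none higher. Actn2, the Z-disc actinin, had levels of 3.65 and 3.71 in line 1 and 5.65 and 5.85 in line 2 (-2.07 ± 0.32, adjusted p = 1.94e-05). Ryr2, the calcium release channel of the sarcoplasmic reticulum, had 0.63 and 0.73 in line 1 and 2.92 and 2.57 in line 2 (-2.07 ± 0.26). The homeobox factor Nkx2-5 had 2.54 and 2.51 in line 1 and 4.40 and 4.60 in line 2 (-1.98 ± 0.44). For these 3 genes every line 2 array exceeded every line 1 array. The atrial and fetal light chain Myl4 differed by -1.73 ± 0.16 and cardiac troponin T, Tnnt2, by -1.12 ± 0.17. The Tnnt2 difference fell short of 2-fold with quantile normalization (-0.74), with normexp (-0.79), in the authors' log2 values (-0.64) and without line 2 replicate 2 (-0.91). Alpha-myosin, Myh6, was at -0.91 ± 0.17 and not called. It was called at -1.61 where the probes of a gene were averaged, and at -1.03 and -1.07 without the first replicate of line 1 or of line 2. Troponin I, Tnni3 (-0.82 ± 0.46), and troponin C, Tnnc1 (-0.54 ± 0.15), were not called. In these bulk samples fewer cardiomyocytes and less of these RNAs per cardiomyocyte cannot be told apart.

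Sarcomere genes were mostly lower in line 1, with 16 of 28 members called lower and 3 higher and a median difference of -1.24 against -0.11 over all genes. Myl2, the regulatory light chain of the ventricle, stood lowest at 3.77 and 3.76 in line 1 and 7.10 and 7.61 in line 2 (-3.59 ± 0.50, adjusted p = 5.65e-06). Skeletal alpha-actin, Acta1, which the fetal heart uses, had 3.59 and 3.61 in line 1 and 6.24 and 6.35 in line 2 (-2.69 ± 0.13, adjusted p = 2.49e-12). The essential light chain Myl3 had 6.49 and 6.41 in line 1 and 8.58 and 9.11 in line 2 (-2.40 ± 0.21). In all 3 genes the gap between the lines exceeded the distance between replicates several times over. The line 2 arrays of day 29 had 5.34 and 4.85 for Myl2, between the lines at their earlier days. The nebulin relative Nebl was lower by -2.98 ± 0.76, a call that was lost with array weights (adjusted p = 0.0745). The atrial light chain Myl7 (-2.22 ± 0.28), the M-band protein Myom1 (-1.97 ± 0.15) and slow troponin I, Tnni1 (-1.70 ± 0.25), followed. Beta-myosin, Myh7 (-1.35 ± 0.23), cardiac actin, Actc1 (-1.07 ± 0.19), and the myosin-binding protein Mybpc3 (-1.40 ± 0.13) were among the smaller falls. Tropomyosin, Tpm1, fell by 1.43 ± 0.17 on the probe that stands for it, while 1 of its 5 probes gave 1.69. Titin, Ttn, the elastic giant of the sarcomere, was at -0.94 ± 0.34 and not called, and its other probes reached -4.05.

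The 3 sarcomere genes on the other side were Myoz2, a Z-disc partner of calcineurin, the M-band protein Myom2 and Cmya5. Myoz2 had 0.19 and 0.15 in line 1 and -2.22 and -3.35 in line 2 (2.95 ± 0.23, adjusted p = 2.3e-09). Myom2 had -0.12 and -0.12 in line 1 and -1.70 and -2.46 in line 2 (1.96 ± 0.37) and Cmya5 1.57 and 2.20 in line 1 and 1.17 and 0.50 in line 2 (1.05 ± 0.31). In line 2 all 3 stood higher on both day 29 arrays than on either day 9 array, with 2.14 and 2.95 for Myoz2 and 2.17 and 4.20 for Myom2. The neoCM arrays had 5.28 and 5.29 for Myoz2, above all iPSC arrays. Acta1 and Myom2 lie on chromosome 8, whose genes as a whole stood higher in line 1, as described further on. Without that chromosome 15 of 26 sarcomere genes were lower and 2 higher.

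**Figure D1:**
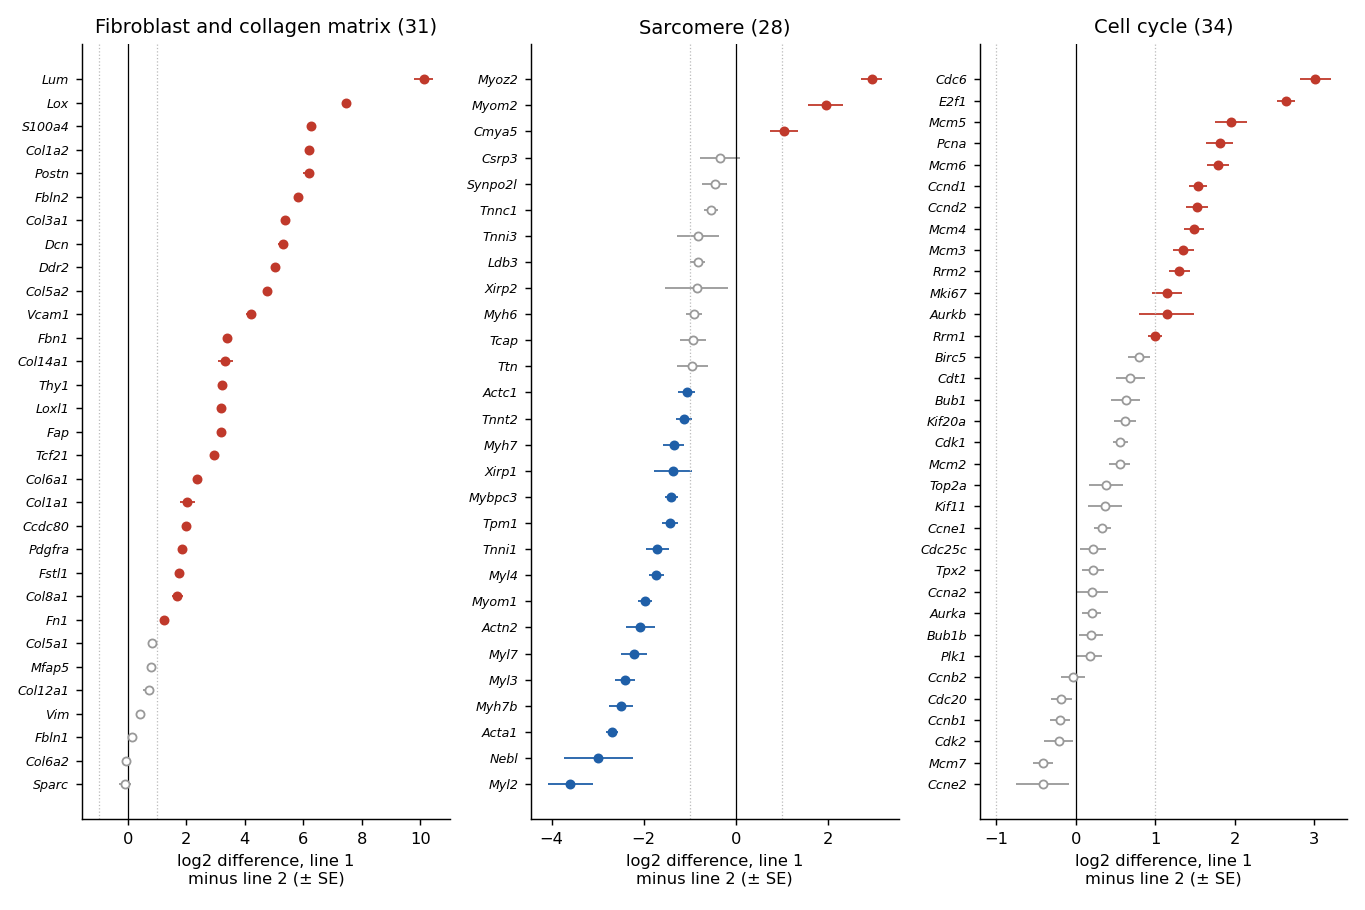
Log2 difference of line 1 minus line 2 with its standard error for every tested member of 3 gene lists; filled points were called (red higher, blue lower in line 1), open grey points were not, and dotted lines mark 2-fold. All 24 called fibroblast and matrix genes lie right of 0, 16 of the 19 called sarcomere genes lie left of it, and the 13 called cell cycle genes lie right of it.

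Many sarcomere genes are bound by serum response factor, Srf, which myocardin, Myocd, assists in muscle. Both factors were lower in line 1. Srf stood at 2.01 and 1.91 in line 1 and 3.94 and 4.01 in line 2 (-2.01 ± 0.10, adjusted p = 4.8e-12), and its second, dimmer probe gave -0.56. Myocd stood at 1.21 and 1.15 in line 1 and 4.14 and 3.70 in line 2 (-2.74 ± 0.20, adjusted p = 1.51e-09). Replicates of a line were close for both genes, and day 29 of line 2 had 1.43 and 2.85 for Srf and -0.09 and 2.20 for Myocd. Srf binds the CArG box, a palindromic motif of 10 bases, which was searched for on both strands in the 250 bases before each annotated start. It was found in 7 of the 25 sarcomere genes with a RefSeq promoter (28%). Of all promoters of the table, 439 of 27025 (1.62%) held it, and of the autosomal genes tested 209 of 14182 (1.47%). None of the 17 fibroblast and matrix genes and none of the 11 smooth muscle genes with a promoter held one in this window. Only exact matches were counted, so looser boxes and boxes outside the window were missed in every list. A list without a match may still hold Srf sites. The 7 sarcomere genes were Acta1, Actc1, Ldb3, Myl3, Myl7, Myom1 and Nebl. Of these, 6 were called lower in line 1, and Ldb3, a Z-disc protein, was at -0.83 ± 0.17 and not called. The other sarcomere genes called lower had no box or no promoter in the table. Genes higher in line 1 held the box too, among them the laminin subunit Lama2 (3.86 ± 0.14). A match describes letters in a window and was not tested as a binding site. The promoters of 4 of these genes and of Srf are printed 5′ to 3′ from RefSeq (GRCm38.p6) with the box in capitals, to show the box in genes called lower in line 1. Acta1 is at chr8:123894776-123895025 on the minus strand, Actc1 at chr2:114052876-114053125 on the minus strand and Myl3 at chr9:110763428-110763677 on the plus strand. Myl7 is at chr11:5898783-5899032 on the minus strand and Srf at chr17:46556163-46556412 on the minus strand.
Acta1: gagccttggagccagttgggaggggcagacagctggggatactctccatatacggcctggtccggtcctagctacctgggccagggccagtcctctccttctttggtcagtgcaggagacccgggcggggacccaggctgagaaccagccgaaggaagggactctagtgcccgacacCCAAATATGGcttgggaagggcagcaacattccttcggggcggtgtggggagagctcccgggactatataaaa
Actc1: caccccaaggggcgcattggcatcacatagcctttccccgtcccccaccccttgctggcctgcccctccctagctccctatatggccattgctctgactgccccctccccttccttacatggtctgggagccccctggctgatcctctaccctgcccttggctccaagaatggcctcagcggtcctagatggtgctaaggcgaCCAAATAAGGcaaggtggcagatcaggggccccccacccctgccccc
Myl3: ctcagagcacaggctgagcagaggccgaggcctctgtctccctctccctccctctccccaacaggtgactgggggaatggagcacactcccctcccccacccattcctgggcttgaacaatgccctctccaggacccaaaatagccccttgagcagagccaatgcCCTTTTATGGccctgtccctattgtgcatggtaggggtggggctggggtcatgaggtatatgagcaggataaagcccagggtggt
Myl7: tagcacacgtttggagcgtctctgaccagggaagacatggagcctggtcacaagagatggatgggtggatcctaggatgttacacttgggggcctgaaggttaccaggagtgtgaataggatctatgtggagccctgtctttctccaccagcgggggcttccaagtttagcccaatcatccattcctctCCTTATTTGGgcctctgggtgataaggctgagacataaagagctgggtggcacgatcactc
Srf: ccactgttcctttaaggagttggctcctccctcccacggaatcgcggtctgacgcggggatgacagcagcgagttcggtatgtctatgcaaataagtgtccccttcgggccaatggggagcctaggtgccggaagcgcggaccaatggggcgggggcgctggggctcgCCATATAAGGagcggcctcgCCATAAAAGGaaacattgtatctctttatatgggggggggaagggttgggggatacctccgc
The box began 47 bases before the start in Actc1, 61 in Myl7, 73 in Acta1 and 85 in Myl3. Srf held a pair of boxes, 82 and 62 bases before its own start.

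Heart transcription factors differed in both directions, with 5 of 16 called lower and 3 higher in line 1, where 10.4% and 13.4% of all genes were. Beside Srf, Myocd and Nkx2-5, line 1 was lower in the zinc-finger factor Gata4 (-1.17 ± 0.16) and the muscle methyltransferase Smyd1 (-1.06 ± 0.22). Hand2, a factor of the second heart field and right ventricle, was higher, at 4.08 and 4.42 in line 1 and 1.25 and 0.75 in line 2 (3.25 ± 0.16, adjusted p = 3.28e-12). The line 1 arrays of Hand2 also exceeded the 2.10 and 1.89 of neoCM and the 1.18 and 0.79 of neoCF. The T-box factor Tbx20 (2.42 ± 0.17) and Gata6 (1.30 ± 0.096) were higher as well. Tbx5 (0.35 ± 0.29) and Isl1 (-0.97 ± 0.48), which marks cardiac progenitors, were not called. Fgf8, a growth factor of the second heart field, had -3.82 and -3.50 in line 1 and 1.06 and 0.88 in line 2 (-4.63 ± 0.34, adjusted p = 1.24e-09). Its relative Fgf10 had -1.70 and -1.76 in line 1 and 1.40 and 1.01 in line 2 (-2.93 ± 0.25). Both were lower in line 1 with no overlap between the lines.

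Of 9 ventricular genes 6 were called lower in line 1, 2 higher and 1 not called. The 6 were Myl2, Myl3, Myh7, the ventricular factor Irx4 (-1.37 ± 0.29), Mpped2 (-2.12 ± 0.19) and calponin, Cnn1 (-1.36 ± 0.10). Hey2, a Notch target of the ventricle, was higher, at -1.28 and -0.92 in line 1 and -2.17 and -2.95 in line 2 (1.46 ± 0.24). Prdm16, a regulator of compact myocardium, had -2.64 and -3.03 in line 1 and -5.85 and -7.13 in line 2. It was not well above background on either line 2 array and was at least 10.8-fold higher in line 1 (adjusted p = 2.97e-08).

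Atrial and pacemaker genes split, 7 of 16 called higher in line 1 and 5 lower. Sarcolipin, Sln, an atrial inhibitor of the calcium pump, had 0.96 and 0.97 in line 1 and -4.95 and -6.40 in line 2 (6.64 ± 0.39, adjusted p = 5.06e-11) and was well above background on 1 of the 2 line 2 arrays. The T-type calcium channel Cacna1g of pacemaker cells had -1.15 and -0.88 in line 1 and -4.78 and -4.38 in line 2 (3.57 ± 0.17). The sinus-node factor Tbx18 had -0.42 and -0.61 in line 1 and -3.50 and -3.98 in line 2 (3.23 ± 0.13). All 3 were higher in line 1 by more than the spread of either pair. Shox2, another sinus-node factor, was at least 6.04-fold higher, with line 2 at background (-5.17 and -3.36 in line 1 and -7.64 and -7.69 in line 2). The nuclear receptors Nr2f1 (1.73 ± 0.18) and Nr2f2 (1.46 ± 0.14) of atrium and veins were also higher. On the lower side, atrial natriuretic peptide, Nppa, had 2.48 and 2.31 in line 1 and 5.21 and 4.97 in line 2 (-2.70 ± 0.22, adjusted p = 5.64e-09), and the potassium channel Kcnj5 differed by -2.70 ± 0.14. Myl7 and Myl4, described above, were lower too, and the other of the 5 was above background on none of the 4 arrays. Tbx18 also marks epicardium and fibroblasts, with 1.80 and 1.54 in neoCF against 0.44 and 0.23 in neoCM, and the part of other cell types in these values was not tested.

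Natriuretic and heart stress genes were mostly lower in line 1, 8 of 13 with 2 higher. Brain natriuretic peptide, Nppb, had -0.58 and -1.08 in line 1 and 4.03 and 2.63 in line 2 (-4.16 ± 0.32, adjusted p = 2.49e-09). Its day 29 levels in line 2 were 1.52 and 4.68, so all 4 line 2 arrays lay above both line 1 arrays. The chaperones Cryab (-1.06 ± 0.12) and Hspb7 (-1.10 ± 0.15) and the ankyrin protein Ankrd2 (-1.60 ± 0.26) were lower, whereas the chaperone Hspb6 was higher, at 2.73 and 2.63 in line 1 and -0.82 and -0.57 in line 2 (3.37 ± 0.13). The other higher member, the receptor Npr3 (2.65 ± 0.22), was not well above background in line 2. Among the 8 lower members, the receptor Npr1 was not well above background in either line. With normexp background correction 5 members were lower in place of 8. Fetal and slow-muscle isoforms, a list that shares members with the sarcomere and natriuretic lists, had 8 of 12 lower and none higher. Adult heart isoforms had 7 of 17 lower and 5 higher. Fabp3, the fatty acid carrier of heart muscle, had 3.46 and 3.51 in line 1 and 5.54 and 5.68 in line 2 (-2.12 ± 0.16), and Cpt1b, the muscle carnitine transferase, had 0.64 and 0.56 in line 1 and 2.53 and 2.41 in line 2 (-1.87 ± 0.16). Both were lower in line 1, while the cytochrome oxidase subunit Cox8b was higher, at 2.99 and 2.86 in line 1 and 1.35 and 0.63 in line 2 (1.94 ± 0.21).

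Calcium handling genes had no common direction, 7 higher and 8 lower of 26. The calcium pump of the reticulum, Atp2a2, was lower, at 4.52 and 4.38 in line 1 and 5.75 and 5.94 in line 2 (-1.39 ± 0.12, adjusted p = 8.1e-09). Phospholamban, Pln, which inhibits that pump, was higher, at 2.12 and 2.37 in line 1 and -0.18 and -0.81 in line 2 (2.74 ± 0.49). Calsequestrin, Casq2, which stores calcium in the reticulum, was higher, at -0.77 and -0.72 in line 1 and -4.59 and -4.60 in line 2 (3.85 ± 0.12). The pump was thus lower and its inhibitors Pln and Sln higher in line 1. On day 29 line 2 had 2.13 and 3.14 for Casq2 and 2.68 and 3.14 for Pln, above line 1 for both. The sodium-calcium exchanger Slc8a1 (-2.40 ± 0.17), the junctional protein Jph2 (-2.12 ± 0.25) and the channel subunit Cacnb2 (-2.53 ± 0.26) were lower. Among cell junction genes 6 of 16 were lower and 4 higher. The desmosome proteins Jup, Pkp2, Dsp and Dsg2 were lower, from -1.49 ± 0.45 in Dsg2 to -2.21 ± 0.27 in Jup. Gja4, a connexin of vessels, was higher, at 2.87 and 2.87 in line 1 and -2.62 and -2.37 in line 2 (5.36 ± 0.13). Gja5, the connexin of atria and conduction fibres, was higher by 3.82 ± 0.18, while its dimmer probe gave -0.52.

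Genes of fibroblasts and collagen matrix had the largest median difference of the 45 gene lists. Their median level was 3.26 and 3.24 in line 1 and 0.66 and 0.31 in line 2, beside 5.04 and 5.29 in neoCF and 4.20 and 4.08 in neoCM. Line 1 lay between line 2 and both primary groups, neoCM included. Of 31 members tested, 24 were called higher in line 1, where 13.4% of all genes were, and none lower. The median difference was 3.18. Lumican, Lum, a proteoglycan that spaces collagen fibrils, had 6.14 and 6.22 in line 1 and -3.04 and -4.84 in line 2 (10.12 ± 0.33, adjusted p = 8.52e-15). The fibrillar collagen chain Col1a2 had 7.71 and 7.48 in line 1 and 1.42 and 1.35 in line 2 (6.21 ± 0.16, adjusted p = 3.55e-16). Another, Col3a1, had 6.77 and 6.72 in line 1 and 1.38 and 1.36 in line 2 (5.38 ± 0.13). In line 1 both chains came near the neoCF levels of 8.01 and 8.00 for Col1a2 and 7.44 and 7.39 for Col3a1. Periostin, Postn (6.19 ± 0.19), the collagen receptor Ddr2 (5.03 ± 0.10), the fibroblast factor Tcf21 (2.95 ± 0.10) and the progenitor receptor Pdgfra (1.84 ± 0.099) shared the direction. The cross-linking enzyme Lox (7.45 ± 0.13) was above background on 1 of the 2 line 2 arrays. Decorin, Dcn, a second collagen proteoglycan, had 1.45 and 1.41 in line 1 and -3.66 and -4.08 in line 2 (5.30 ± 0.16), against 7.91 and 7.80 in neoCF. Line 1 was thus not near fibroblast levels in every member. The 7 members not called included Sparc (-0.09 ± 0.20), vimentin, Vim (0.42 ± 0.12), and fibulin 1, Fbln1 (0.15 ± 0.13).

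The day 29 arrays of line 2 had list medians of 3.40 and -0.89 for the same fibroblast and matrix genes. Replicate 1 was thus at the level of line 1 and replicate 2 below that of line 2 on day 9. The cardiomyocyte marker medians of these arrays were 3.21 and 5.36. Between the 2 lines the fibroblast list and the sarcomere list differed in opposite directions. The part of cell composition in either difference was not tested.

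**Figure D2:**
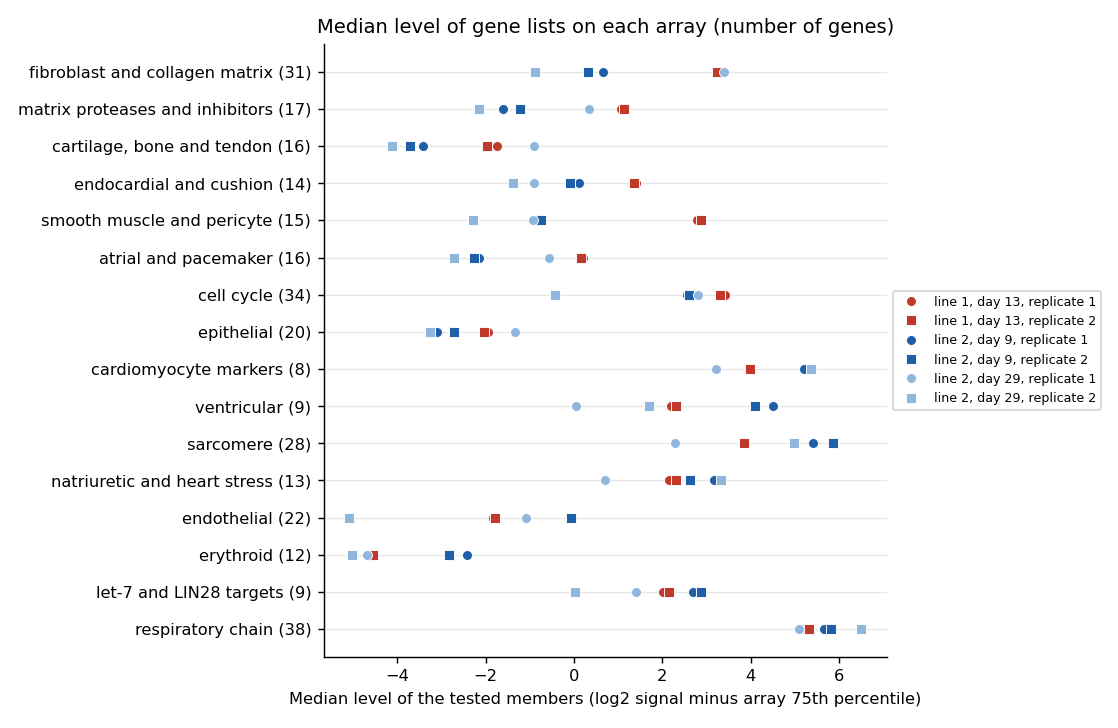
Median level (log2 signal minus the array's 75th percentile) of the tested members of 16 gene lists, with the number of genes in brackets, on each of 6 arrays; line 1 is red, line 2 is dark blue on day 9 and light blue on day 29, circles are replicate 1 and squares replicate 2. The day 29 arrays are far apart for the fibroblast list (3.40 and -0.89), where line 1 stands at 3.26 and 3.24.

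Matrix-remodelling and skeletal tissue genes shared this direction. Of 17 proteases and inhibitors 10 were higher and 2 lower, and of the lower the collagenase Mmp13 was not well above background on any of the 4 arrays. Adamts2, which trims procollagen, had 5.02 and 5.04 in line 1 and -0.07 and -0.28 in line 2 (5.20 ± 0.13, adjusted p = 3.54e-16). The collagenase activator Mmp14 (2.52 ± 0.14), the gelatinase Mmp2 (1.46 ± 0.12) and the inhibitor Timp2 (2.48 ± 0.17) were higher. Of 16 cartilage, bone and tendon genes 10 were higher and 2 lower. The cartilage factor Sox9 had 1.61 and 1.76 in line 1 and -2.51 and -3.19 in line 2 (4.53 ± 0.15), and the tendon factor Scx had 3.21 and 3.30 in line 1 and -1.28 and -1.06 in line 2 (4.43 ± 0.10). Both were higher on every line 1 array. The cartilage collagen Col2a1 was lower (-1.18 ± 0.28). That call was lost with all 34 arrays in the fit (adjusted p = 0.103) and without line 1 replicate 1, where the difference was -0.94.

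Of 14 endocardial and cushion genes, which mark the mesenchyme of forming valves, 8 were higher and 2 lower. The homeobox factor Prrx1 had 2.42 and 2.35 in line 1 and -2.74 and -3.70 in line 2 (5.61 ± 0.18, adjusted p = 7.37e-15), while its paralog Prrx2 was lower (-1.26 ± 0.15). The zinc-finger factors Snai1 (1.92 ± 0.17) and Snai2 (1.71 ± 0.12), Twist2 (1.87 ± 0.23) and the hyaluronan synthase Has2 (2.99 ± 0.25) were higher, and the homeobox factor Msx2 was lower (-1.84 ± 0.23). Smooth muscle and pericyte genes had 8 of 15 higher and 5 lower. Pdgfrb, the platelet-derived growth factor receptor of pericytes, had 3.30 and 3.31 in line 1 and -0.74 and -1.04 in line 2 (4.20 ± 0.095, adjusted p = 5.55e-17). The smooth muscle actin of gut and vessels, Actg2, had 3.42 and 3.48 in line 1 and -1.42 and -1.73 in line 2 (5.03 ± 0.15). The pericyte genes Cspg4 (3.22 ± 0.16) and Rgs5 (2.84 ± 0.26) were higher too. Alpha smooth muscle actin, Acta2, was lower, at 7.72 and 7.59 in line 1 and 8.46 and 9.10 in line 2 (-1.13 ± 0.16), with desmin, Des (-1.45 ± 0.11), and Cnn1. These 3 are also made by immature cardiomyocytes. Smooth muscle myosin, Myh11, was lower (-1.47 ± 0.22), at -0.99 and not called with normexp.

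Secreted signals and their inhibitors also differed. Of 33 Wnt genes 14 were higher in line 1 and 4 lower. The secreted antagonist Sfrp2 had 4.17 and 4.20 in line 1 and -0.14 and -0.68 in line 2 (4.60 ± 0.24, adjusted p = 7.79e-12). Other antagonists, Wif1 (4.19 ± 0.47), Dkk2 (3.76 ± 0.57), Sfrp1 (3.27 ± 0.22) and Frzb (2.76 ± 0.15), and the ligand Wnt5a (3.03 ± 0.22) were higher with it. The nuclear factor Tcf7 was lower, at -3.01 and -3.72 in line 1 and 0.29 and -0.06 in line 2 (-3.48 ± 0.43), as was the feedback inhibitor Axin2 (-1.10 ± 0.34), a common read-out of beta-catenin. Of 31 TGF-beta and BMP genes 12 were higher and 4 lower. The activin subunit Inhba had 2.77 and 2.73 in line 1 and -3.39 and -3.72 in line 2 (6.30 ± 0.096, adjusted p = 2.4e-19). The ligand Bmp7 was lower, at 1.95 and 1.71 in line 1 and 5.05 and 5.06 in line 2 (-3.23 ± 0.44), with Bmp2 (-2.27 ± 0.27), while Bmp4 was higher (1.08 ± 0.12). The receptor Tgfbr2 was higher by 3.89 ± 0.18, and its dimmer probe gave -0.38. In the Notch list, 8 of 16 genes were higher and 2 lower. The target Nrarp (3.50 ± 0.48) and the receptors Notch1 (1.03 ± 0.33), Notch2 (1.28 ± 0.094), Notch3 (1.07 ± 0.10) and Notch4 (2.12 ± 0.11) were higher. The target Heyl (4.32 ± 0.16) was above background on 1 of the 2 line 2 arrays.

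Markers of vessels were more often lower than higher in line 1, with 10 of 22 endothelial genes called lower and 2 higher. Their median level was -1.82 and -1.78 in line 1 and -0.05 and -0.07 in line 2. Von Willebrand factor, Vwf, had -3.81 and -3.80 in line 1 and 1.12 and 1.25 in line 2 (-4.99 ± 0.45, adjusted p = 2.07e-08). Endothelial cadherin, Cdh5, had -0.15 and -0.31 in line 1 and 1.34 and 1.20 in line 2 (-1.50 ± 0.49). The arrays of the lines did not overlap in the median or in either gene. The receptor Tie1 differed by -3.08 ± 0.80, a call that was lost with array weights (adjusted p = 0.086), under which 6 members were lower in place of 10. Pecam1 was lower by -1.29 ± 0.16, and the receptors Kdr (-0.20 ± 0.24) and Tek (-0.27 ± 0.23) were not called. Endoglin, Eng (2.35 ± 0.11), and the factor Fli1 (2.72 ± 0.27) were the 2 higher members. The Fli1 call was lost with all 34 arrays in the fit (adjusted p = 0.0654).

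Of 12 erythroid genes 6 were lower in line 1 and none higher. The embryonic globin Hbb-bh1 of primitive red cells had -4.56 and -4.49 in line 1 and 0.03 and -0.29 in line 2 (-4.39 ± 0.28, adjusted p = 1.49e-10). The embryonic Hbb-y had -3.57 and -3.87 in line 1 and 0.30 and 0.23 in line 2 (-3.99 ± 0.47). Hba-x, the embryonic alpha-type globin, was not well above background in line 1 (-8.52 and -7.51 in line 1 and -2.07 and -2.37 in line 2) and was at least 44.5-fold lower (adjusted p = 3.28e-05). All 3 were higher on both day 9 arrays of line 2 than in line 1. On day 29 line 2 had -4.32 and -3.97 for Hbb-bh1, near line 1. Probes of similar globin genes may share signal. The erythroid factors Tal1 (0.01 ± 0.13) and Klf1 (0.09 ± 0.29) were not called.

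Epithelial genes differed in both directions, 10 of 20 called higher in line 1 and 5 lower. With array weights 5 were higher, and without chromosome 8, which carries Cdh1, 8 of 18 were. E-cadherin, Cdh1, was at -0.55 and -1.15 in line 1 and -6.26 and -7.17 in line 2. It was not well above background in line 2 and was at least 49.2-fold higher in line 1 (adjusted p = 8.36e-12). The adhesion protein Epcam was 7.32-fold higher by the plain difference, with line 2 at background (-2.37 and -2.61 in line 1 and -5.23 and -5.49 in line 2). The keratins of simple epithelia were lower instead. Krt18 had 3.43 and 3.36 in line 1 and 6.53 and 6.31 in line 2 (-3.03 ± 0.23, adjusted p = 2.01e-09), Krt8 -2.88 ± 0.37 and Krt19 -2.51 ± 0.28. Cadherin and keratins thus did not go together. Of 31 endoderm and liver genes 11 were higher and 5 lower, where 13.4% and 10.4% of all genes were. Of these 16 calls 8 were above background in 1 line only. Alpha-fetoprotein, Afp, a product of yolk sac and fetal liver, was at -0.38 and -1.17 in line 1 and -7.48 and -7.64 in line 2. It was at least 67.7-fold higher in line 1 (adjusted p = 3.5e-12), with both line 2 arrays at background. On day 29 line 2 had 5.47 and -7.20 for Afp, high on 1 array and at background on the other. The gut microvillus protein Vil1 (-3.44 ± 0.36) and the endocytic partner Amn (-3.21 ± 0.42) were lower in line 1. Macrophage genes had 5 of 17 higher and 2 lower, and 3 of these 7 calls were above background in 1 line only. Neural genes had 5 of 19 higher and 1 lower. That 1 was the eye and brain factor Pax6, at -5.36 and -5.72 in line 1 and -0.49 and -0.82 in line 2 (-4.88 ± 0.51).

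Cell cycle genes were called in 1 direction, 13 of 34 higher in line 1 and none lower. Cdc6, which loads the replicative helicase, had -0.85 and -0.92 in line 1 and -3.78 and -4.01 in line 2 (3.01 ± 0.19, adjusted p = 2e-10). The transcription factor E2f1 had 1.16 and 1.18 in line 1 and -1.66 and -1.29 in line 2 (2.64 ± 0.11, adjusted p = 5.21e-13). The helicase subunits Mcm3 (1.35 ± 0.13), Mcm4 (1.49 ± 0.13), Mcm5 (1.95 ± 0.20) and Mcm6 (1.79 ± 0.14) were on the same side. So were the sliding clamp Pcna (1.81 ± 0.17) and the D cyclins Ccnd1 (1.54 ± 0.11) and Ccnd2 (1.52 ± 0.14). Cyclin B1, Ccnb1, had 3.52 and 3.35 in line 1 and 3.52 and 3.75 in line 2 (-0.20 ± 0.12), and the kinases Plk1 (0.17 ± 0.16) and Aurka (0.20 ± 0.12) and the activator Cdc20 (-0.18 ± 0.13) were not called. The proliferation marker Mki67 (1.15 ± 0.19) and the mitotic kinase Aurkb (1.14 ± 0.35) were called and Mcm2 (0.55 ± 0.13) and Mcm7 (-0.41 ± 0.12) were not. Whether replication genes differed from mitotic genes was not tested.

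Inhibitors of the cycle and p53 targets had 6 of 20 lower and 2 higher. Pmaip1, which encodes the apoptosis activator Noxa, had -5.05 and -5.13 in line 1 and 3.44 and 3.42 in line 2 (-8.52 ± 0.10, adjusted p = 7.63e-21). This was the largest fall of any gene well above background on all 4 arrays. Line 2 had 2.11 and 4.80 on day 29, so all 4 of its arrays lay above both of line 1. Trp53inp1, a p53 target, had 2.41 and 2.88 in line 1 and 4.57 and 4.42 in line 2 (-1.85 ± 0.11). The p53 targets Bbc3 (-1.70 ± 0.10), Mdm2 (-1.36 ± 0.10) and Ccng1 (-1.24 ± 0.10) and the inhibitor Cdkn1b (-1.17 ± 0.10) were lower. The inhibitor Cdkn2c was higher (2.60 ± 0.14). Cdkn2a was higher by 1.17 ± 0.22, which was lost with all 34 arrays in the fit (adjusted p = 0.192).

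LIN28 proteins block the maturation of let-7 microRNAs and so keep let-7 targets active in early embryos. Of 9 genes of this axis 5 were lower in line 1 and none higher. Lin28a had -1.45 and -1.76 in line 1 and 1.35 and 2.05 in line 2 (-3.31 ± 0.26, adjusted p = 3.49e-09), and Lin28b had -1.74 and -1.60 in line 1 and 2.56 and 2.13 in line 2 (-4.02 ± 0.35, adjusted p = 1.23e-08). The let-7 target Arid3b had -1.32 and -1.41 in line 1 and 3.47 and 4.02 in line 2 (-5.11 ± 0.15). In all 3 the line 2 arrays stood well above those of line 1. Trim71 (-1.78 ± 0.39) and Hmga1 (-1.50 ± 0.11) were lower with them, and Hmga2 (0.13 ± 0.20) was not called. On day 29 Lin28a had 1.04 and -1.85 and Lin28b 2.00 and -1.60, so replicate 1 was near line 2 of day 9 and replicate 2 near line 1. Of 23 pluripotency genes 6 were lower, Lin28a, Lin28b and Trim71 included, and Klf2 (2.62 ± 0.13), a gene of endothelium and of chromosome 8, was higher. Over all genes 10.4% were lower and 13.4% higher. Among the reprogramming factors, Pou5f1 had -4.16 and -4.90 in line 1 and -2.89 and -2.02 in line 2 (-2.08 ± 0.73), a call that was lost with all 34 arrays (adjusted p = 0.141). Myc was higher by 1.27 ± 0.17, Klf4 was at 0.96 ± 0.12 and not called, and Sox2 was not among the genes tested. These probes were not checked for telling added copies from the cells' own.

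**Figure D3:**
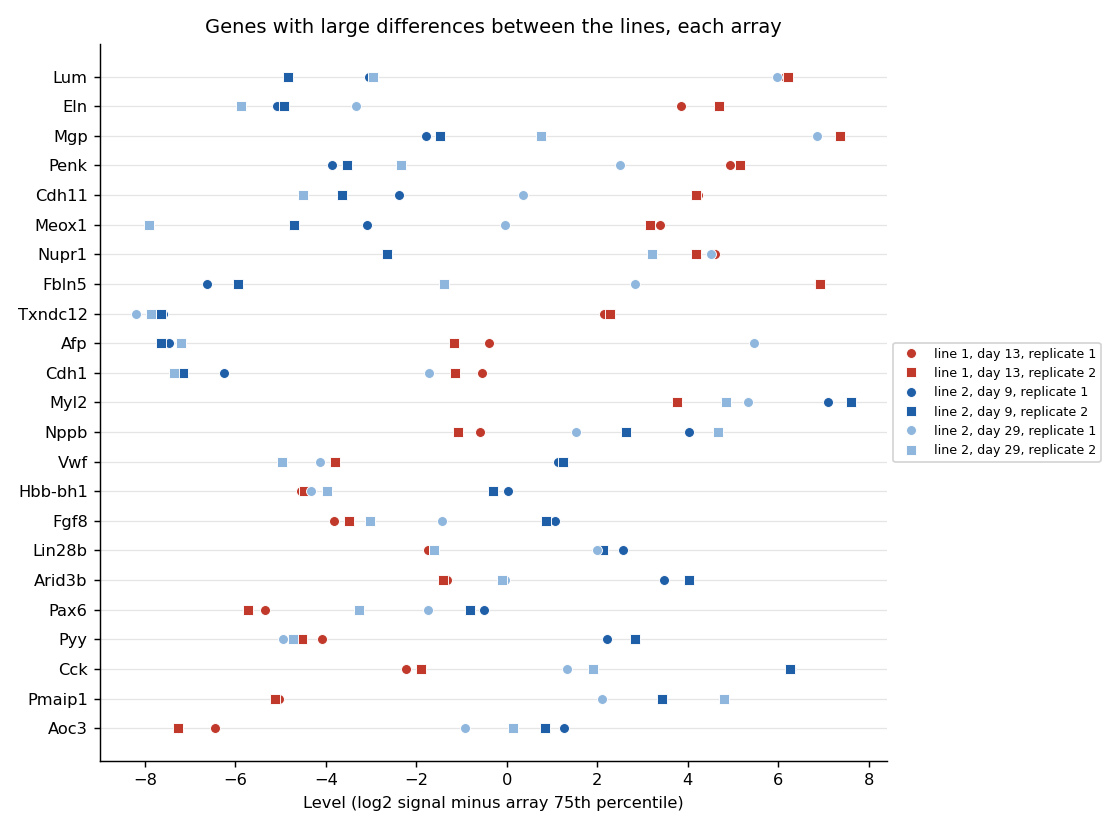
Level (log2 signal minus the array's 75th percentile) of 23 genes on each of 6 arrays; line 1 is red, line 2 is dark blue on day 9 and light blue on day 29, circles are replicate 1 and squares replicate 2. Pmaip1 was at -5.05 and -5.13 in line 1 and at or above 2.11 on all 4 arrays of line 2, and Txndc12 was at 2.14 and 2.29 in line 1 and at or below -7.61 on all 4 of line 2.

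Imprinted genes are read from 1 parental copy and are often used to judge pluripotent lines. Of 30 tested, 8 were higher in line 1 and 5 lower, where 13.4% and 10.4% of all genes were. In the Dlk1-Dio3 cluster of chromosome 12, the maternally read RNA Meg3 had 4.49 and 4.54 in line 1 and 7.37 and 7.56 in line 2 (-2.95 ± 0.096, adjusted p = 9.61e-15). Mirg, a microRNA host of the same maternal copy, had 0.81 and 1.40 in line 1 and 4.00 and 2.97 in line 2 (-2.38 ± 0.24). The paternally read Dlk1 had 7.58 and 7.62 in line 1 and 5.08 and 5.16 in line 2 (2.48 ± 0.15, adjusted p = 9.16e-11). Both maternal RNAs were thus lower in line 1, though well above background there, and Dlk1 was higher. Dio3 was at 0.86 ± 0.39 and not called, and was called at 1.44 without line 2 replicate 2. Rian and Rtl1 were not among the genes tested. Meg3 levels were 5.63 and 6.33 on day 29 of line 2, 4.86 and 4.81 in neoCM and 5.66 and 5.53 in neoCF. Mirg levels were 2.66 and 2.84 on day 29 of line 2, -0.08 and -0.13 in neoCM and 1.68 and 1.70 in neoCF. For both RNAs line 2 on day 9 stood above both primary groups. Line 1 lay below both of them for Meg3 and between them for Mirg. Outside the cluster, the scavenger receptor of IGF2, Igf2r, had 5.55 and 5.62 in line 1 and 2.04 and 1.58 in line 2 (3.77 ± 0.11), and the growth-limiting adaptor Grb10 had 0.46 and -0.07 in line 1 and -4.41 and -3.52 in line 2 (4.16 ± 0.26). Both were higher in line 1. Igf2 was higher (1.06 ± 0.39), its neighbour H19 (-0.37 ± 0.35) was not called, and Snrpn was lower (-2.29 ± 0.11). The neoCF arrays had 4.55 and 4.63 for Igf2r and 6.09 and 5.90 for Dlk1, and the part of cell composition was not tested.

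The largest single rises among genes well above background on all 4 arrays were, after Lum, elastin, Eln, matrix Gla protein, Mgp, and proenkephalin, Penk. Eln had 3.85 and 4.69 in line 1 and -5.08 and -4.92 in line 2 (9.27 ± 0.26, adjusted p = 1.43e-15). Mgp had 7.36 and 7.37 in line 1 and -1.78 and -1.47 in line 2 (8.99 ± 0.13), and Penk had 4.94 and 5.16 in line 1 and -3.87 and -3.54 in line 2 (8.75 ± 0.39). Line 1 had these above its 75th percentile and line 2 below it. The carbonyl reductase Cbr2 (7.80 ± 0.38), the mesenchymal cadherin Cdh11 (7.22 ± 0.23), the somite factor Meox1 (7.17 ± 0.29) and the stress factor Nupr1 (7.04 ± 0.12) followed. The procollagen protease Tll1 was above background in line 2 by its dimmer probe alone, which gave a difference of 1.15. Its brighter probe had -0.16 and -0.16 in line 1 and -7.59 and -7.61 in line 2 and was below the lowest signal well above background on both line 2 arrays. After Pmaip1, the largest falls were in the gut and brain peptides Cck and Pyy. Cck had -2.22 and -1.89 in line 1 and 6.28 and 6.26 in line 2 (-8.33 ± 0.33, adjusted p = 2.32e-13), and Pyy had -4.09 and -4.52 in line 1 and 2.21 and 2.83 in line 2 (-6.82 ± 0.49). On day 29 line 2 had 1.34 and 1.91 for Cck and -4.94 and -4.73 for Pyy, below day 9 for both. The scaffold protein Ush1c (-6.03 ± 1.00), the lipoxygenase Alox5 (-5.43 ± 0.28) and the glutamate receptor subunit Grin2c (-5.23 ± 0.27) were next with Art5 (-5.48 ± 0.24).

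Among genes not well above background on either array of the lower line, the elastic-fibre protein Fbln5 led. Its brighter probe had 6.90 and 6.92 in line 1 and -6.63 and -5.94 in line 2. By that probe alone Fbln5 was 9387-fold higher in line 1 (adjusted p = 2.77e-21), the plain difference. Its dimmer probe gave a far smaller difference of 5.97 on the log2 scale, so 9387 is no lower limit for the gene. Clca3a1 was at least 834-fold higher, at 3.02 and 2.83 in line 1 and -6.88 and -7.54 in line 2, and the phosphodiesterase Pde1a at least 623-fold higher, at 2.34 and 2.51 in line 1 and -7.65 and -7.28 in line 2. In all 3 genes the line 1 replicates were close together. The odorant receptor gene Olfr980, at least 505-fold higher by the same rule, had -2.22 and 6.46 in line 1 and -7.61 and -7.66 in line 2. Its line 1 arrays were far apart, and with only the 4 arrays in the fit it had an adjusted p of 0.0707.

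A few genes were detected in 1 line and not in the other on any day measured. Of the 4436 called genes, 25 were well above background in line 1, neoCM and neoCF but on none of the 4 line 2 arrays. In the opposite direction 21 genes were above background on all 4 line 2 arrays and in both primary groups but on neither line 1 array. This rule was chosen after the data were seen. Some of these genes lay near background in both lines. The at-least fold was only 1.95 in Tctex1d1, which had -5.71 and -6.08 in line 1. On the other side the plain fold of Rbfox3 was 3.24. Txndc12, a disulphide isomerase of the endoplasmic reticulum, was at 2.14 and 2.29 in line 1 and -7.61 and -7.65 in line 2 on day 9 and -8.20 and -7.87 on day 29. It was at least 539-fold higher in line 1 (adjusted p = 8.11e-16), and 15 of the 17 groups of the series had it on both arrays. Aoc3, an amine oxidase of vessels, was at -6.45 and -7.26 in line 1 and 1.26 and 0.84 in line 2 on day 9 and -0.92 and 0.13 on day 29. By the plain difference it was 239.7-fold lower in line 1 (adjusted p = 5.09e-15), and the other 16 groups had it on both arrays. Cyct, the testis form of cytochrome c, was at least 29.4-fold lower, at -8.32 and -8.51 in line 1 and -2.79 and -2.85 in line 2, and 15 groups had it. Each of the 3 genes was measured by 1 probe, so a missing transcript and a changed probe target cannot be told apart.

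Genes of chromosome 8 stood higher in line 1 as a group. Over its 820 genes well above background on all 4 arrays the median difference was 0.27, with quartiles of -0.30 and 0.86. The medians of the other 18 autosomes ran from -0.19 to -0.02. Chromosome 8 exceeded the other autosomes together by 0.38, a ratio of 1.30. On it 63.7% of genes were above 0, against 38.5% to 48.2% on the others. Of its 966 genes tested, 21.7% were called higher, against 8.93% to 17.2% on the others. Called lower were 5.90%, against 8.24% to 12.6%. The shift was also present over the 601 genes not called, whose median was 0.13 against -0.20 to -0.05 elsewhere. In 4 successive stretches of 205 genes along the chromosome the median was 0.23, 0.26, 0.28 and 0.31. The shift lay in line 1. With each gene centred over all 34 arrays, chromosome 8 exceeded the other autosomes by 0.35 and 0.37 on the line 1 arrays. On the other 32 arrays, the 4 of line 2 included, the offset was -0.09 to 0.01. The other 18 autosomes had offsets of -0.11 to 0.07 on the line 1 arrays. These values describe a pattern noticed in the same data and carry no test, and DNA copy number was not measured here.

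**Figure D4:**
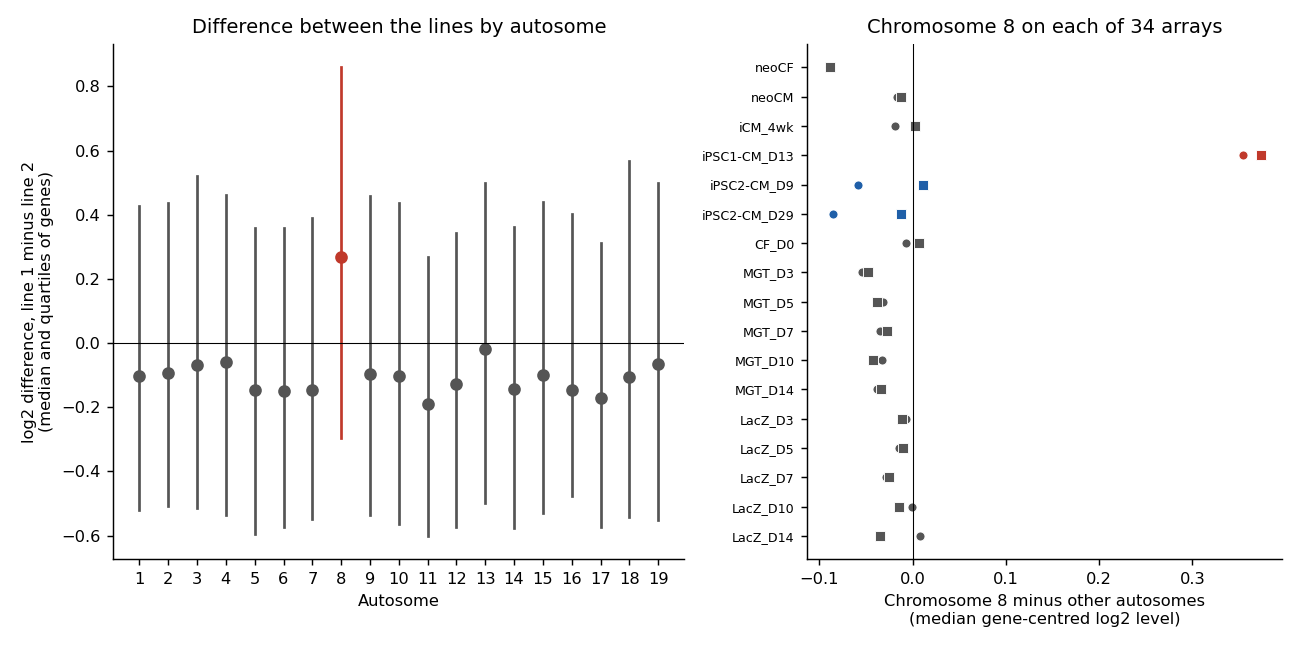
Left, median (point) and quartiles (line) of the log2 difference of line 1 minus line 2 over the genes of each autosome that were well above background on all 4 arrays; chromosome 8 (red) is at 0.27 and all others are below 0. Right, median gene-centred log2 level of chromosome 8 minus that of the other autosomes on each array of the 17 groups, where the line 1 arrays (red) stand at 0.35 and 0.37 and the other 32 at or below 0.01 (circles replicate 1, squares replicate 2).

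Of the genes described, Cdh11, Tll1, Cdh1, Hand2, Klf2, Mmp2, Mcm5, Sfrp1 and Myom2 lie on chromosome 8 and were higher in line 1, and Acta1 and Cdh5 lie there and were lower. Without its genes, 2281 of 17652 autosomal genes were called higher. No fibroblast and matrix gene tested lies on it, and the cell cycle list kept 12 higher of 32.

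The respiratory chain held few calls. Of 38 subunits 1 was called higher and 2 lower, 7.89% against 23.8% of all genes. Median levels were 5.23 and 5.31 in line 1 and 5.67 and 5.82 in line 2, lower in line 1 without overlap. The 3 called members were the muscle isoforms of cytochrome oxidase Cox7a1 (-2.12 ± 0.17), Cox6a2 (-1.51 ± 0.14) and Cox8b, described above. A missed threshold does not show that the other subunits were equal. DNA methylation and Polycomb genes had 4 of 21 called, fatty acid genes 8 of 31 and basement membrane genes 4 of 16, shares near that of all genes. Skeletal muscle genes had 8 of 22 lower and 1 higher, with fast troponin I, Tnni2, at -0.31 and -0.60 in line 1 and 2.25 and 2.66 in line 2 (-2.91 ± 0.40).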

How the data were processed

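Total RNA of 34 samples in 17 groups, 2 arrays a group, was hybridised with Cy3 to Agilent mouse arrays. Per the file headers, Feature Extraction (version 10.7.3.1) made the deposited intensity values, 1 per spot, and subtracted the background. The authors' deposited log2 values of the same arrays were processed with limma, per the submitters' processing notes, and served as an alternative; their centring is unstated (their column medians lie near 7.5, and they correlated at r = 0.982 or more with the values used here). Outlier spots were dropped, log2 signals of a probe averaged, and each array's 75th percentile subtracted. Probes well above background on both arrays of any group were kept, named by accession or symbol through RefSeq tables (GRCm38.p6), and the brightest probe stood for its gene. limma 3.58.1 in R 4.3.3 fitted lmFit and eBayes to the 32 arrays of 16 groups (16 residual degrees of freedom). Autosomal genes were counted. Where the lower line was not above background on either array, "at least" folds set the higher mean against, on each array, the larger of the gene's own signal and the lowest signal well above background. Where the gene's own signal was the larger on both arrays, as in Fbln5, Aoc3, Epcam and Rbfox3, the fold is the plain difference of that probe. The lowest signal is a minimum over all probes of an array, at -7.04 and -6.68 in line 2, and is no detection limit. Some genes above it were not well above background, such as Gp9 at -5.28 and -5.71 in line 2. The "at least" folds are thus no strict lower limits. The number of arrays limits the precision. The procedure was tested on simulated data with 19415 genes, 200 of them changed, and normal noise of the spread within groups. It called 78% of genes changed by 1.5 and 97% of genes changed by 3 on the log2 scale, with 5 false calls. The simulation held no variation between cultures, days or slide rows and far fewer changed genes than were called here. It therefore does not show the error of the calls in this comparison.

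The members, gene lists and tests were chosen with earlier results of these data known. Named genes were, by rule, the 10 highest and 10 lowest differences among genes above background on all 4 arrays, the 5 highest and 5 lowest folds among those above background in 1 line only, the 2 largest rises and falls of each list, all cardiomyocyte markers, the 4 reprogramming factors, the Dlk1-Dio3 genes, and members of a described list by role. Same-numbered replicates deviated with a correlation of -0.02, so the numbers were not taken to pair the samples. Genes of the sex chromosomes and the other groups' comparisons were not analysed here.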

Additional observations from a re-analysis of the deposited data

How the results depend on the processing

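Over the alternatives with all 4 arrays, 1982 to 2644 autosomal genes were higher in line 1 (2491 as reported) and 1284 to 2304 lower (1945), the lowest count of lower genes being that of normexp background correction with quantile normalization. That alternative also gave 5 natriuretic and stress genes lower in place of 8 and a chromosome 8 excess of 0.31 in place of 0.38. With array weights 6 endothelial genes were lower in place of 10 and 5 epithelial genes higher in place of 10. For these counts the cause was not tested. Leaving out 1 array at a time gave 2285 to 2677 higher and 1791 to 2279 lower genes and a chromosome 8 excess of 0.38 to 0.41; line 2 replicate 2, the dimmest array, gave the lowest count of lower genes when left out, and line 2 replicate 1 the highest. With the replicate number as a block on the 4 arrays, 2438 genes were higher and 1945 lower, although the numbers do not pair the samples. Of the genes called, 72.2% were also called with normexp and 84% or more with every other alternative that kept all 4 arrays. The median of all genes moved from -0.11 to -0.01 with quantile normalization or normexp, to 0.00 in the authors' log2 values and to -0.22 without a filter on dim probes, so differences may be read against those values. Gene by gene, the alternatives were followed for 184 named genes, which leave out the list members named by role only. Of the 184, 153 kept their call in every alternative with all replicates and no block, and none changed direction. For genes named by role only, such as Acta1 and Col1a2, this count says nothing. Of 720 list medians, 7 had the other sign. Limits are the 2 arrays a group, the single slide, the joined line and day, and the signal. The 165 called genes well above background on none of the 4 arrays stayed in the counts, and their folds rest on background signals.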

Other observations

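Of 16 splicing regulators 6 were called lower in line 1 and 2 higher. Quaking, Qk, had 1.99 and 1.87 in line 1 and 4.65 and 4.42 in line 2 (-2.60 ± 0.11, adjusted p = 4.71e-13 in limma). Rbm20, which sets titin splicing in the heart, had -1.56 and -1.55 in line 1 and 0.02 and 0.30 in line 2 (-1.72 ± 0.38), and Rbm24, a factor of early heart and skeletal muscle, had 3.02 and 3.02 in line 1 and 5.01 and 4.61 in line 2 (-1.79 ± 0.22). All 3 had both line 2 arrays above both line 1 arrays, where 74.4% of all genes did not overlap in 1 direction or the other. Rbpms2 (-1.99 ± 0.11), a cardiomyocyte RNA-binding protein, was lower with them. Rbfox1 (2.28 ± 0.35), a splicing factor of brain and muscle, and Esrp2 (1.51 ± 0.38), an epithelial splicing factor on chromosome 8, were higher. The dimmer probe of Rbfox1 gave 0.76, and on the brighter its line 2 arrays were far apart, at -3.23 and -5.13. Genes of retinoic acid metabolism, a signal of posterior heart and epicardium, had 5 of 14 higher and 2 lower. The synthesis enzymes Aldh1a1 (0.68 and 0.28 in line 1 and -3.63 and -2.94 in line 2, 3.77 ± 0.22) and Aldh1a2 (-1.62 and -2.06 in line 1 and -6.14 and -4.81 in line 2, 3.64 ± 0.26) were higher, the latter above background on 1 of the 2 line 2 arrays. The degrading enzyme Cyp26a1 was at least 7.07-fold lower, with line 1 at background (-8.30 and -8.46 in line 1 and -4.95 and -4.80 in line 2), and at -0.58 and not called with normexp. The retinol receptor Stra6 was lower (-2.52 ± 0.48). Of 30 Hox genes 9 were higher and 4 lower, where 13.4% and 10.4% of all genes were. On none of the 4 arrays were 6 of the 30 above background, among them Hoxd9, which was called lower. Called higher were Hoxa2 (-1.05 and -0.93 in line 1 and -3.81 and -4.55 in line 2, 3.19 ± 0.32), Hoxa3 (1.53 and 1.47 in line 1 and -1.47 and -2.10 in line 2, 3.28 ± 0.19), Hoxb4 (1.98 ± 0.15) and others of the anterior groups, and Hoxb6 (-2.44 ± 0.29) was among the lower.

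Interferon-response genes had 11 of 30 higher in line 1 and 2 lower, against 13.4% and 10.4% of all genes. Of the 2 lower, Irf7 was above background on none of the 4 arrays. Ifit2, an antiviral protein, had -1.26 and -1.58 in line 1 and -4.68 and -6.22 in line 2 (4.03 ± 0.31, adjusted p = 2.48e-09 in limma) and was above background on 1 of the 2 line 2 arrays. The immunity GTPase Irgm1 had 1.18 and 0.78 in line 1 and -2.62 and -3.20 in line 2 (3.90 ± 0.17). The chemokine Cxcl10, also an interferon target, was lower, at -5.12 and -5.74 in line 1 and -0.62 and -1.24 in line 2 (-4.50 ± 0.31). Ifit2 and Irgm1 were thus higher and Cxcl10 lower on every line 1 array. The chemokine Cxcl12 was higher by 3.41 ± 0.16. Among stress genes the amino acid response targets Chac1 (4.40 and 4.08 in line 1 and 0.95 and 1.25 in line 2, 3.14 ± 0.13), Trib3 (5.32 and 4.99 in line 1 and 2.33 and 1.93 in line 2, 3.03 ± 0.15) and Ddit3 (1.25 ± 0.19) were higher, while Atf3 was lower (-1.76 ± 0.21; adjusted p = 0.117 with all 34 arrays in the fit). Of 20 cholesterol synthesis genes 6 were higher, from 1.02 ± 0.13 in Fdps to 1.71 ± 0.099 in mevalonate kinase, Mvk, and none lower. Among 17743 tested probes that the tables give no gene for, 1328 were called higher and 1626 lower. These probes were fitted and adjusted apart from the genes and were not limited to autosomes. Their counts are therefore not on the footing of the gene calls.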
